A study of Mus musculus with 74 samples.

Results

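The XX gonad of the C57BL/6J (B6) mouse was followed over the day in which the gonadal primordium takes on an ovarian or a testicular fate. All arrays labelled C57BL/6J and XX were taken, which gave 18 of the 74 arrays of the series, with 3 arrays at each of 6 stages from E11.0 to E12.0, 4.8 h apart. Each array held the RNA of 1 pair of gonads of 1 embryo, dissected away from the mesonephros, from inbred animals that carried no transgene and received no treatment. The 18 arrays of XX gonads of 129S1/SvImJ (129S1) and the 19 arrays of B6 XY gonads, at the same stages, served to ask whether a change differed by strain or by sex. Transcript levels were read on bead arrays and are given as log2 intensities that the authors normalized, so that a difference of 1 is a doubling. Each difference is given with its standard error from the limma fit after the ±, and rests on n = 3 arrays a stage. The standard error uses a spread estimated over all 74 arrays. A probe is said to rise or fall where the test of E12.0 minus E11.0 gave an adjusted p under 0.05 over the 12848 probes kept above an intensity limit, under which a probe was at no more than 7.59 in all but at most 1 array of every group.

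At the start of this window the gonad is bipotential. Its supporting cell precursors can become Sertoli cells, under the testis-determining genes Sry and Sox9, or pregranulosa cells, in which Wnt4, Rspo1 and β-catenin signalling act and the activin antagonist follistatin is made. Germ cells arrive in the same hours, and the surface epithelium of the gonad divides and sheds cells inward. Mesenchyme and vessels are present as well, so that the RNA of a whole gonad is a mixture. In such bulk samples fewer cells of a type and less RNA per cell cannot be told apart.

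The arrays carried the sex on their labels, with Xist between 9.71 and 11.08 in B6 XX gonads and no higher than 7.58 in B6 XY gonads. Markers of the genital ridge and supporting lineage (Wt1, Nr5a1, Gata4 and Lhx9) were all measured and 0 of the 4 changed, their mean level lying between 9.73 and 10.08 at E12.0 and between 9.63 and 10.07 at E11.0. The mean correlation of an array with the 2 others of its stage ran from 0.963 to 0.989, and the lowest belonged to replicate 1 of E12.0. Over the 18 arrays the first principal component, 32.1% of the variance, separated replicates within stages, and the second, 14.8%, followed stage. Litter is not in the labels, so the p-values measure the spread between single embryos.

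Between E12.0 and E11.0, 418 probes of 346 genes rose (3.25% of the probes tested) and 302 probes of 262 genes fell (2.35%), together 5.6% of the 12848. The median change of all probes was -0.01 and the median standard error 0.14. The rises reached further than the falls, since 71 risen probes and 27 fallen probes changed by log2 1 or more. The 3 arrays of E12.0 all lay above the 3 of E11.0 in 7.43% of all probes and all below in 8.27%. The genes named for the largest rises and falls were chosen among called probes without such overlap. Lack of overlap is therefore no added support for them. Without replicate 1 of E11.0 the number of rises was 248. Without replicate 2 of E11.0 the falls numbered 172, and without replicate 1 of E12.0 they numbered 181. A fit of the 18 arrays alone, with the spread estimated from those arrays, called 232 rises and 162 falls. The reason for the lower counts was not tested.

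Genes of the ovarian pathway list were among those with the largest rises. Fst encodes follistatin, the secreted antagonist of activins, and lies on chromosome 13. Its level was 7.98, 8.35 and 8.11 at E11.0, 8.51, 7.99 and 8.07 at E11.2, 9.27, 9.23 and 10.31 at E11.4, 9.96, 10.35 and 9.63 at E11.6, 10.46, 10.94 and 11.19 at E11.8, and 11.77, 10.66 and 11.24 at E12.0. The first 2 stages overlapped, every array from E11.4 on lay above them, and all arrays of E11.8 lay above all of E11.6. The difference between E12.0 and E11.0 was 3.07 ± 0.24 (limma, adjusted p = 5.64e-14), and the step between E11.4 and E11.2 alone was 1.41 ± 0.24 (adjusted p = 0.00294). Fst was one of 4 probes called in that interval, and its call there was lost in the fit of the 18 arrays alone (adjusted p = 0.323), as well as without replicate 2 of E11.2 (0.112), replicate 3 of E11.2 (0.0515) or replicate 3 of E11.4 (0.266).

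Irx3, a homeobox gene of the Iroquois family on chromosome 8 that is expressed in pregranulosa cells, rose later. It was 8.19, 8.69 and 8.75 at E11.0, 8.38, 8.70 and 8.29 at E11.2, 8.68, 8.42 and 8.77 at E11.4, 9.35, 9.67 and 8.84 at E11.6, 9.50, 9.65 and 10.39 at E11.8, and 11.83, 10.79 and 11.32 at E12.0. The 3 stages up to E11.4 overlapped, and the 3 arrays of E12.0 lay above every earlier array. The end-to-end difference was 2.77 ± 0.23 (adjusted p = 1.77e-13), of which 1.46 ± 0.23 fell between E11.8 and E12.0 (adjusted p = 0.000452, or 0.0537 in the fit of the 18 arrays alone). Its neighbour in the same gene cluster, Irx5, had a difference of 0.40 ± 0.13 that did not pass (adjusted p = 0.0642).

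Sprr2d, a small proline-rich protein of cornifying epithelia, had the largest difference among the genes of this list, 3.44 ± 0.42 (adjusted p = 2.45e-08). It was 11.84, 11.00 and 10.95 at E12.0, against 7.82, 7.73 and 7.91 at E11.0, and the arrays of the 4 stages between lay between these groups, from 8.22 at E11.2 to 10.91 at E11.8. Lgals7, a galectin of stratified epithelia, was 12.06, 11.66 and 11.802 at E12.0, against 9.53, 9.87 and 9.37 at E11.0, a difference of 2.25 ± 0.25 (adjusted p = 1.4e-09). Gas6, the vitamin K-dependent ligand of the TAM receptor kinases, was 11.81, 10.99 and 11.49 at E12.0, against 9.50, 10.03 and 9.34 at E11.0, a difference of 1.81 ± 0.24. In none of the 3 genes did the groups overlap, which the rule for naming the largest rises required. Gng13, a G protein gamma subunit, was 10.49, 9.79 and 10.05 at E12.0, against 8.33, 8.37 and 8.37 at E11.0, and already at 8.999, 9.18 and 9.09 at E11.2, a difference between the ends of 1.75 ± 0.16.

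**Figure D1:**
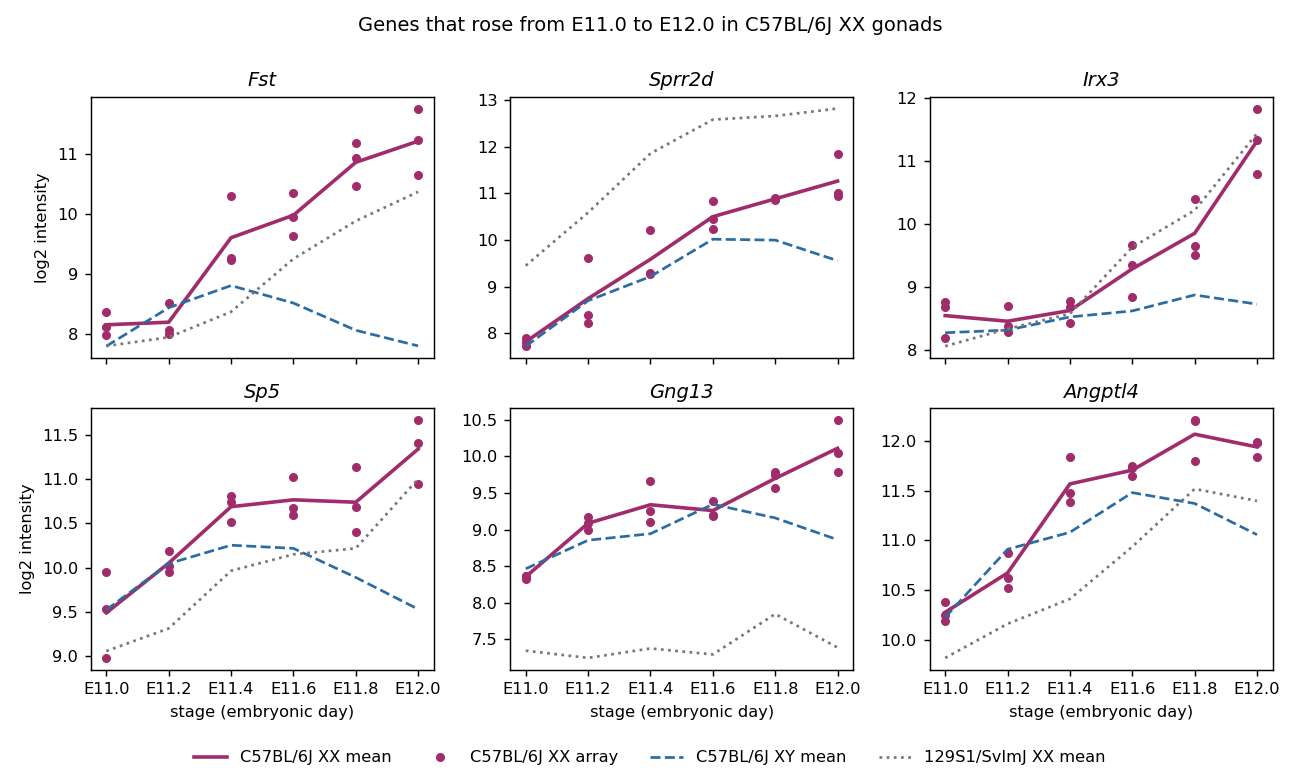
Log2 intensity (vertical axes, each with its own range) of 6 genes at the 6 stages in B6 XX gonads, where points are single arrays and the solid line is the mean of 3 arrays, with the means of B6 XY gonads (dashed) and 129S1 XX gonads (dotted). Fst leaves its E11.0 level at E11.4 and Irx3 climbs above all earlier arrays at E12.0, while Angptl4 stays near 12 after E11.4.

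Of the 19 measured genes of the ovarian pathway list, 6 rose (Fst, Irx3, Sprr2d, Lgals7, Gas6 and Gng13), 1 fell and 12 did not pass, with a median change of 0.40. Over all 9003 genes 3.54% rose, 2.61% fell and the median was -0.01, which is the background for every list below. The list holds genes that the study named on these arrays, so its direction is not independent evidence. Gng13 stands in the study's table of mapped transcripts under a male-enriched pattern. Sprr2d and Lgals7 also stand on a list of the coelomic and surface epithelium, of whose 18 measured genes 3 rose and 1 fell, with a median of 0.02. The third to rise was Upk1b, a uroplakin (by 0.68 ± 0.21), which missed the threshold without replicate 1 or replicate 2 of E11.0 or replicate 2 or replicate 3 of E12.0, and the one to fall was Aldh1a2. The gene of the ovarian list that fell was Nr2f1, an orphan nuclear receptor, by 0.99 on the log2 scale with overlapping arrays, and it missed the threshold without replicate 1 or replicate 3 of E11.0 or replicate 1 of E12.0. The 6 rises passed without any single array of either stage. Against B6 XY gonads the change was higher for Fst, Irx3 and Gng13. For Sprr2d, Lgals7 and Gas6 no difference between the sexes was called. Wnt4, the ligand most closely tied to ovarian fate, was read by 2 probes that disagreed on the call. Its brighter probe, which stands for the gene in the list, gave 12.07, 11.196 and 11.79 at E12.0 against 10.98, 11.59 and 10.78 at E11.0, with overlap, and did not pass (0.57 ± 0.30, adjusted p = 0.353), although it did with array weights (adjusted p = 0.0383) and as a straight line over the 6 stages (0.0126). The dimmer one rose by 0.83 ± 0.25 (adjusted p = 0.0309). The highest stage mean of the brighter probe came earlier, with 11.90, 12.35 and 12.17 at E11.8. Rspo1, the secreted amplifier of Wnt signalling, differed by 0.19 ± 0.19 (adjusted p = 0.731), and Runx1, a transcription factor of pregranulosa cells, by 0.39 ± 0.13 (adjusted p = 0.0594). Runx1 passed with the replicate number as a block (0.0461), with array weights (0.0391), with cyclic loess in the fit of 74 arrays (0.0425) and without replicate 1 of E11.0 (0.04).

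Some feedback targets of Wnt signalling rose, while most members of the list did not pass. Genes that β-catenin and its TCF/LEF partners switch on in many tissues, most of which feed back on the pathway, form the Wnt feedback list, and 5 of its 13 measured members rose and 0 fell, with a median of 0.07. Sp5, a zinc finger repressor that is a direct Wnt target, was 8.98, 9.53 and 9.95 at E11.0, 9.94, 10.19 and 10.01 at E11.2, 10.75, 10.81 and 10.52 at E11.4, 10.60, 11.03 and 10.68 at E11.6, 10.40, 10.68 and 11.14 at E11.8, and 10.94, 11.67 and 11.42 at E12.0. The arrays of E11.0 spread widely, and none of them reached the lowest array of E11.4 or later. The difference between E12.0 and E11.0 was 1.86 ± 0.30 (adjusted p = 1.51e-05). Axin2, the scaffold of the β-catenin destruction complex, was 10.43, 10.02 and 10.58 at E12.0, against 9.26, 9.60 and 9.23 at E11.0 (0.98 ± 0.18, adjusted p = 0.000109), with no overlap. Tnfrsf19, a receptor of the TNF family, rose by 0.99 ± 0.24, Apcdd1, an inhibitor at the membrane, by 0.43 ± 0.11, and Lef1, itself a Wnt effector, by 0.40 ± 0.12. Sp5 and Axin2 passed without any single array of either stage. Tnfrsf19 missed the threshold without replicate 2 of E11.0 (adjusted p = 0.0784) or replicate 2 of E12.0 (0.0693), and Apcdd1 without replicate 3 of E11.0 (0.111) or replicate 1 of E12.0 (0.2). Lef1 missed it without replicate 1 or replicate 2 of E11.0 or any array of E12.0 (0.068 to 0.254), so that 3 of the 5 passed without replicate 2 of E11.0, replicate 1 of E12.0 or replicate 2 of E12.0.

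Among 28 Wnt ligands, receptors and modulators, 1 rose (3.6%, near the 3.54% of all genes) and 3 fell (10.7%, against 2.61%). Porcn, the acyltransferase that Wnt ligands need for secretion, rose by 0.66 ± 0.18, while the secreted inhibitor Sfrp1 fell by 0.96 on the log2 scale and the receptors Fzd2 and Fzd7 fell by 0.65 and 0.58. Of these 4, Fzd2 alone passed without replicate 1 of E11.0 or replicate 1 of E12.0, and Fzd7 alone without replicate 2 of E11.0. Without replicate 2 of E12.0 Sfrp1 and Fzd2 missed the threshold, and without replicate 3 of E12.0 Fzd7 did.

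The letters ATCAAAG, the core that TCF/LEF factors bind, were sought on both strands in RefSeq promoters of the assembly GRCm38.p6, from 250 bases before to 50 after each start. They were found in 3.73% of 32851 promoters. Counted by gene, they were in 2.97% of the 7316 measured genes with a promoter there, in 4.4% of the 273 risen and in 3.9% of the 205 fallen. Of the 5 risen feedback genes 4 had a promoter in the table, and Sp5 and Tnfrsf19 held the letters. These stretches are shown because both genes rose and both are known Wnt targets, and capitals mark the match. That of Sp5, at chr2:70474783-70474862 on the plus strand, covers positions -140 to -61 from the start and reads the core on its other strand. That of Tnfrsf19, at chr14:61038148-61038227 on the minus strand, covers positions -240 to -161 of one of its promoters. A match is a description of the letters and not of binding.
Sp5: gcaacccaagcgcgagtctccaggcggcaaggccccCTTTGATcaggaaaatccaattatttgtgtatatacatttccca
Tnfrsf19: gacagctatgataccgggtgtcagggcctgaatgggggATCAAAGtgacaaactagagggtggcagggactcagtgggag

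Further large rises came from genes outside these lists. Ifi27, an interferon-inducible protein of the inner nuclear membrane and mitochondria, was read by 2 probes that gave differences of 2.30 ± 0.21 and 2.26 ± 0.20, and the second was 10.22, 10.87 and 10.73 at E12.0 against 8.29, 8.20 and 8.56 at E11.0. Pglyrp1, a secreted protein that binds bacterial peptidoglycan, was 10.48, 9.48 and 10.21 at E12.0, against 8.13, 7.89 and 8.13 at E11.0 (2.00 ± 0.25, adjusted p = 3.98e-08). Neither gene had overlapping arrays, which the rule for naming the largest rises required. Papln, a matrix glycoprotein of the papilin family, rose by 1.96 ± 0.24, Hs3st3a1, a heparan sulfate sulfotransferase, by 1.71 ± 0.23, Wfdc1, a secreted protein with a whey acidic protein domain, by 1.66 ± 0.16, Hsd17b11, a hydroxysteroid dehydrogenase of lipid droplets, by 1.63 ± 0.21, and Igfbp2, a binding protein of insulin-like growth factors, by 1.49 ± 0.27. Phlda2, an imprinted gene that restrains growth of the placenta, was 11.31, 9.82 and 9.30 at E12.0, against 8.26, 8.98 and 8.32 at E11.0 (1.62 ± 0.31), where replicate 1 of E12.0 stood far above the others.

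Germ cell genes rose as a group, but in an amount that hung on single embryos. Of 27 measured genes of germ cells and meiosis 13 rose (48.1%, against 3.54% of all genes) and 0 fell, with a median change of 0.74. The list mean was 9.64, 8.99 and 8.86 at E12.0, against 8.34, 8.41 and 8.47 at E11.0, and the array at 9.64 was replicate 1. Without that array 2 of the 27 rose, Sohlh1 and Sall4, and the median was 0.39. Without replicate 1 of E11.0 the number was 5, and without replicate 2 of E11.0 it was 8. At E11.6 the list mean ran from 8.24 to 9.04, so that single embryos of 1 stage differed as much as the stages did. The mean of the 4 measured germ cell markers (Dazl, Dppa3, Pou5f1 and Tfap2c) lay between 9.20 and 10.45 at E12.0, against 8.38 to 8.59 at E11.0, and 3 of the 4 rose. The marker genes Ddx4 and Kit had no probe above the intensity limit, and the part that the number of germ cells in each gonad played was not tested.

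Sohlh1, a basic helix-loop-helix factor of germ cell differentiation, was the germ cell gene with the smallest p. It was 7.88, 7.76 and 7.75 at E11.0, 8.03, 8.32 and 8.56 at E11.2, 8.50, 8.49 and 8.92 at E11.4, 8.68, 8.91 and 8.47 at E11.6, 9.24, 9.31 and 9.15 at E11.8, and 9.34, 9.01 and 9.22 at E12.0. No array of a later stage came down to the E11.0 level, and the difference was 1.39 ± 0.17 (adjusted p = 2.08e-08). Sall4, a zinc finger factor of pluripotent cells, was 10.75, 10.51 and 9.94 at E12.0, against 8.93, 8.63 and 9.55 at E11.0 (1.37 ± 0.29, adjusted p = 0.0015, or 0.0713 in the fit of the 18 arrays alone), with arrays that did not overlap. Tfap2c, a factor of germ cell specification, was 11.06, 10.01 and 9.86 at E12.0, against 8.57, 8.71 and 9.25 at E11.0 (1.47 ± 0.32), and missed the threshold without replicate 1 of E12.0 (adjusted p = 0.0584). Dppa4, a chromatin-associated pluripotency protein, rose by 1.54, Rhox9, an X-linked homeobox gene, by 1.31, Dppa3, the maternal factor Stella, by 1.27, Asz1, a component of the piRNA pathway, by 1.20 (adjusted p = 0.0938 without replicate 1 of E12.0), and Dazl, the RNA-binding protein that licenses germ cells for meiosis, by 0.93. Pou5f1, the pluripotency factor, differed by 0.74 ± 0.40 (adjusted p = 0.386).

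The palindrome CACGTG, an E-box that basic helix-loop-helix factors bind, was found in 7.15% of the promoters. Among genes with a promoter in the table it was in 14.3% of the risen and 10.7% of the fallen, against 11.9% of the 7316 measured genes. It was also in 2 of the 4 risen Wnt feedback genes with a promoter in the table, Lef1 and Tnfrsf19. Of the 13 risen germ cell genes 6 had a promoter there, and Sohlh1 and Mov10l1, an RNA helicase of the piRNA pathway, held it. The stretches are shown because Sohlh1 holds the palindrome 3 times in 80 bases, at chr2:25847419-25847498 on the minus strand, with capitals on each match. That of Mov10l1 lies at chr15:88982744-88982823 on the plus strand. Both cover positions -250 to -171 from the start.
Sohlh1: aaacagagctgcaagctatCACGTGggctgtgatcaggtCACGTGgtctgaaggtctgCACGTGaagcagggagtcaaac
Mov10l1: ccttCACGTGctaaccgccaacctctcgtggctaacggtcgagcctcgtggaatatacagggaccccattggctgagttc

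The largest fall was that of Cbln1, a secreted protein of the cerebellin family that organizes synapses in the brain and is encoded on chromosome 8. It was 10.85, 11.14 and 11.13 at E11.0, 10.98, 11.28 and 10.89 at E11.2, 10.62, 9.99 and 9.83 at E11.4, 9.68, 9.25 and 9.78 at E11.6, 9.11, 8.55 and 8.93 at E11.8, and 8.22, 8.45 and 8.27 at E12.0. From E11.4 on the arrays of each stage lay below all arrays of the stage before. The difference between E12.0 and E11.0 was -2.73 ± 0.25 (adjusted p = 2.29e-12), and no single interval passed the test. Its relative Cbln4 was 7.62, 7.60 and 7.67 at E12.0, against 9.02, 8.42 and 9.01 at E11.0, a difference of -1.19 ± 0.17.

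The list of interstitium and mesenchyme held the most falls of the lists examined, after that of the Hox genes. Of its 19 measured members 6 fell and 0 rose, with a median of -0.44, while 2.61% of all genes fell. Cxcl12, the chemokine that guides germ cells and vessels, was 9.79, 12.06 and 11.52 at E12.0, against 13.08, 12.98 and 13.12 at E11.0 (-1.94 ± 0.35, adjusted p = 0.00012). Even the highest array of E12.0 lay below the lowest of E11.0, while replicate 1 of E12.0 stood well below the 2 others. Foxc1, a forkhead factor of mesenchyme, was 7.83, 8.44 and 8.18 at E12.0, against 10.03, 10.28 and 9.93 at E11.0 (-1.93 ± 0.32, adjusted p = 2.11e-05). Rgs5, a pericyte marker, fell by 0.91 on the log2 scale, Twist1, a mesenchymal helix-loop-helix factor, by 0.87, and Dlk1, a Notch-like surface protein of stromal progenitors, by 0.73. The list mean was 8.48, 9.32 and 9.04 at E12.0, against 9.61, 9.37 and 9.45 at E11.0. The array at 8.48 was replicate 1 of E12.0, the one with the highest germ cell mean. Without it, and likewise without replicate 1 of E11.0, 3 of the 6 fell (Foxc1, Cxcl12 and Rgs5), and without replicate 2 of E11.0 it was 4. Twist1 missed the threshold without any of these 3 arrays. The markers Pdgfra, Nr2f2, Tcf21, Col1a1 and Col1a2 were all measured and 0 of the 5 changed.

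**Figure D2:**
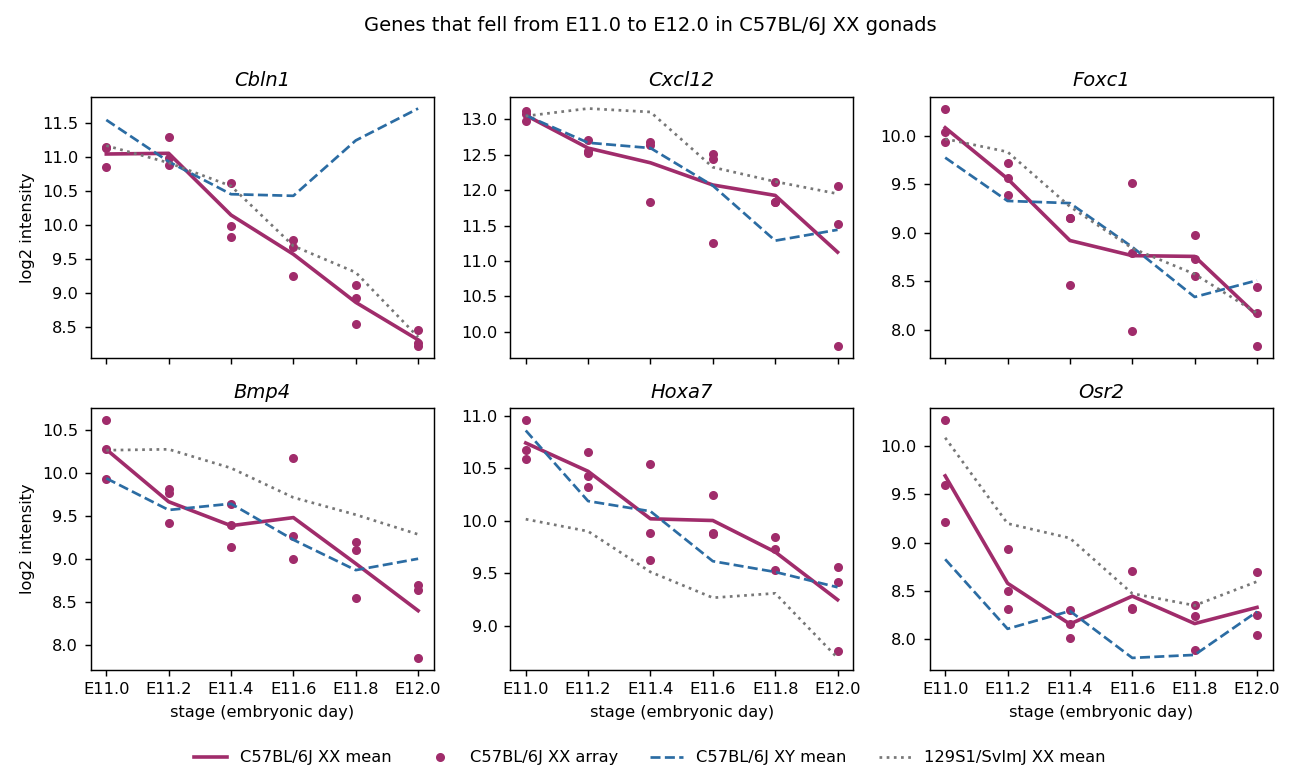
Log2 intensity (vertical axes, each with its own range) of 6 genes at the 6 stages in B6 XX gonads, where points are single arrays and the solid line is the mean of 3 arrays, with the means of B6 XY gonads (dashed) and 129S1 XX gonads (dotted). Cbln1 falls at each stage after E11.2 in XX gonads of both strains, and Osr2 is at its lower level from E11.2 on.

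Bmp4, a ligand of the BMP family made by mesenchyme, was 7.85, 8.64 and 8.70 at E12.0, against 10.27, 10.61 and 9.93 at E11.0 (-1.87 ± 0.29, adjusted p = 8.99e-06). It was the only fall among 29 genes of BMP, activin and TGF-beta signalling, in which Fst and Amhr2, the receptor of anti-Müllerian hormone (0.64 ± 0.14), rose. The 2 other probes of Amhr2 gave 0.49 and 0.06 and did not pass (adjusted p = 0.174 and 0.955). Fgf10, a mesenchymal growth factor, fell by 0.74 on the log2 scale, and Gfra3, a co-receptor of the ligand artemin, by 1.39. Ednrb, the endothelin receptor of neural crest cells, fell by 1.06 and was the only one of 5 measured neural crest and neuron genes that passed, although its other probe, with means near 8, differed by -0.10 (adjusted p = 0.919).

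The Hox genes, whose order along a cluster matches the part of the body axis in which they are active, moved in both directions. Of 22 measured, 8 fell (36.4%, against 2.61% of all genes) and 2 rose (9.1%, against 3.54%), and the median was -0.34. Hoxa7 was 8.76, 9.56 and 9.42 at E12.0, against 10.59, 10.68 and 10.96 at E11.0 (-1.50 ± 0.23, adjusted p = 5.92e-06), with all 3 arrays below. Hoxa5 fell by 1.17 on the log2 scale, Hoxb5 and Hoxb7 by 0.95 each, and Hoxb6, Hoxc9, Hoxc6 and Hoxa2 fell by smaller amounts. The 2 that rose were members of the posterior part of the HoxD cluster. Hoxd10 was 10.36, 10.35 and 10.20 at E12.0, against 8.77, 8.60 and 8.19 at E11.0 (1.78 ± 0.36, adjusted p = 0.000708), and Hoxd9 rose by 0.47, which missed the threshold without replicate 3 of E11.0, replicate 1 of E12.0 or replicate 3 of E12.0. Without replicate 1 of E12.0, 4 of the 8 falls remained called (Hoxa7, Hoxb5, Hoxb7 and Hoxb6), and without replicate 2 of E11.0 it was 5.

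Of 12 measured genes of retinoic acid metabolism 3 fell, 9 did not pass and 0 rose, also when any single array of E12.0 or E11.0 was left out. Over all genes 2.61% fell, against 25.0% of this list. Crabp2, which carries retinoic acid to its nuclear receptor, was 9.39, 9.47 and 8.65 at E11.0, 8.45, 8.31 and 8.40 at E11.2, and 8.38, 7.96 and 8.08 at E12.0. Aldh1a2, the enzyme that makes retinoic acid, was 9.40, 9.77 and 9.32 at E11.0, 9.26, 8.55 and 8.31 at E11.2, and 8.92, 8.71 and 8.67 at E12.0. In both genes all arrays of E11.2 lay below all of E11.0. Adh1, an alcohol dehydrogenase that oxidizes retinol, fell by 1.77 and by 1.13 on the log2 scale in its 2 probes. With E11.2 in place of E11.0 as the first stage, the difference was -0.25 for Crabp2 and 0.059 for Aldh1a2. For the 2 probes of Adh1 it was -0.59 and -0.29, and none of these differences passed. A second, dimmer probe of Aldh1a2 differed by -0.44 between E12.0 and E11.0 and did not pass (adjusted p = 0.143).

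Of 10 measured genes of mesonephric tubules, the tissue that was cut away, 2 fell (20.0%, against 2.61% of all genes), 8 did not pass and the median was -0.03. Cdh16, a cadherin of kidney and mesonephric epithelium, was 7.73, 8.24 and 8.60 at E11.0, between 7.09 and 7.52 at all stages from E11.2 to E11.8, and 7.20, 7.24 and 7.22 at E12.0. Cldn6, a tight junction protein of embryonic epithelia, was 7.83, 7.60 and 7.50 at E12.0, against 8.66, 8.56 and 8.98 at E11.0. The differences between E12.0 and E11.0 were -0.97 ± 0.27 for Cdh16 and -1.09 ± 0.29 for Cldn6. Cldn6 alone passed without replicate 2 of E11.0 or replicate 1 of E12.0, and neither gene without replicate 3 of E11.0 or replicate 3 of E12.0. The mean of the list was 8.02, 8.11 and 8.22 at E11.0 and between 7.79 and 8.03 in the arrays of all later stages. Osr2, a zinc finger factor of mesonephros and limb mesenchyme, was 9.21, 9.59 and 10.27 at E11.0 and between 7.89 and 8.93 in every later array (-1.36 ± 0.33 between E12.0 and E11.0), but missed the threshold without replicate 3 of E11.0 (adjusted p = 0.0667) or replicate 1 of E12.0 (0.0507). The mean of the 4 measured mesonephros markers (Cdh16, Gata3, Lhx1 and Pax8) lay between 7.32 and 7.46 at E12.0, against 7.47 to 7.97 at E11.0, and 1 of the 4 fell. The markers Pax2 and Ret had no probe above the intensity limit. Whether a remnant of mesonephros in the E11.0 samples had a part in the early falls was not tested.

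**Figure D3:**
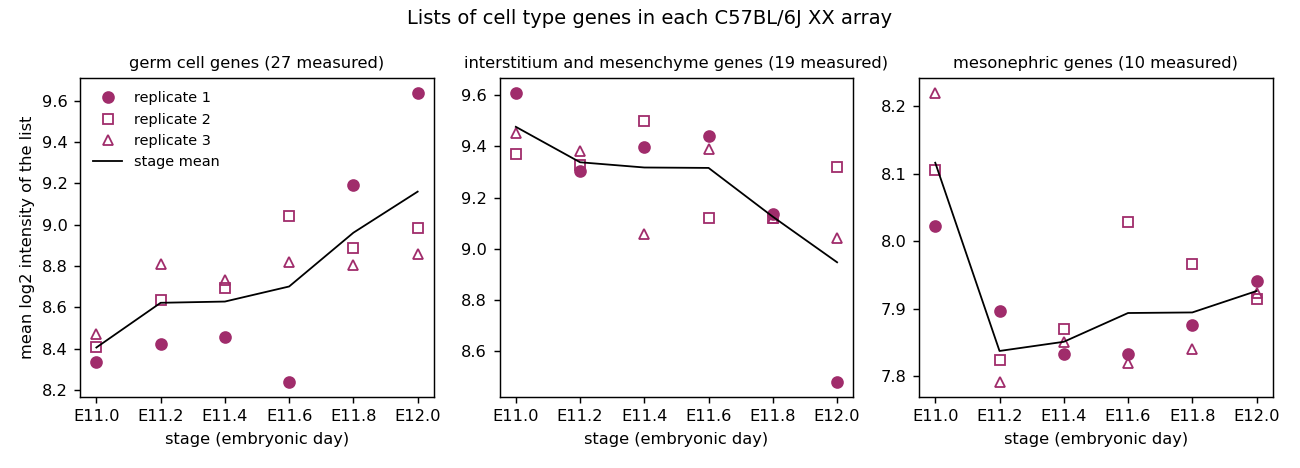
Mean log2 intensity of all measured genes of 3 lists (27, 19 and 10 genes) in each of the 18 B6 XX arrays by stage, with symbols for replicate numbers, which do not link samples across stages, and a line through the stage means. Replicate 1 of E12.0 has the highest germ cell mean and the lowest interstitium mean, and the 3 arrays of E11.0 have the highest mesonephric means but for 1 array of E11.6.

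The 4 stages between the ends showed how the changes came about. A straight line over the stages described 246 of the 418 rises (58.9%) better than a single step, a step described 63 (15.1%) better, and 109 (26.1%) were not separated. Of the 302 falls 170 (56.3%) were gradual, 58 (19.2%) were steps and 74 (24.5%) were not separated. This description, made by comparing the fits by the Bayesian information criterion (BIC) with a margin of 2, is not a test. Without replicate 3 of E11.0 the steps numbered 95 among rises and 120 among falls, and without replicate 2 of E11.0 they numbered 32 and 25.

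Among the probes called between E12.0 and E11.0, the steps lay at both ends of the day for rises and at its start for falls. Of the 63 steps up, 28 lay between E11.0 and E11.2, 13 in the second interval, 0 in the third, 2 in the fourth and 20 between E11.8 and E12.0. Of the 58 steps down, 40, 14, 1, 3 and 0 lay in the 5 intervals in order. The median fallen probe had covered 41.6% of its change by E11.2, 60% by E11.4, 66.5% by E11.6 and 77.2% by E11.8, and the median risen probe 27.3%, 48.8%, 51.2% and 70% by the same stages. The step counts and these shares use the E11.0 and E12.0 values that chose the probes and carry no test. Choosing probes on those stages favours steps beside them, so the counts alone do not give the timing.

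**Figure D4:**
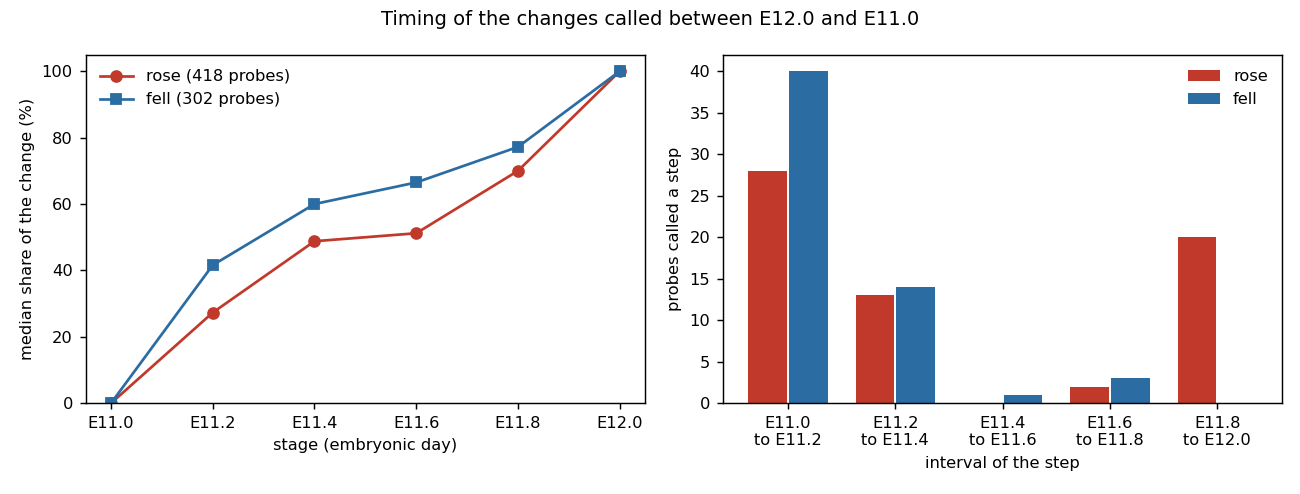
Left, the median share of the E12.0 minus E11.0 change (percent, vertical axis) reached by each stage, over 418 risen and 302 fallen probes. Right, the number of probes described as a single step (vertical axis) by the interval in which the step lay. In the first interval lie 40 of 58 steps down and in the last 20 of 63 steps up. Both panels use probes chosen by their E11.0 and E12.0 values.

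Among the early steps up was Myl1, a light chain of muscle myosin, which was 9.55, 9.59 and 9.84 at E11.0, 10.45, 10.64 and 10.59 at E11.2, and 11.39, 11.28 and 10.95 at E12.0. Angptl4, a secreted inhibitor of lipoprotein lipase, made its step a stage later. It was 10.19, 10.25 and 10.38 at E11.0, 10.62, 10.52 and 10.87 at E11.2, 11.48, 11.39 and 11.84 at E11.4, and between 11.64 and 12.21 in all later arrays. All arrays of E11.4 lay above all earlier ones, and the interval difference of 0.90 ± 0.16 passed (adjusted p = 0.00294), though not without replicate 2 of E11.2 (0.112) or replicate 3 of E11.4 (0.208). Etv2, an ETS factor of endothelial progenitors, was 7.48, 7.81 and 7.59 at E11.0, 7.84, 8.46 and 8.75 at E11.2, 9.08, 8.80 and 9.81 at E11.4, and 9.45, 9.21 and 8.94 at E12.0. It was the only one of 17 measured endothelial genes that changed. Late steps were made by Adamts19, a secreted metalloprotease, which was 8.63, 8.56 and 9.11 at E12.0, against 7.78, 7.59 and 8.40 at E11.8, and by Mybphl, a myosin-binding protein of heart muscle, which was 8.13, 7.93 and 8.26 at E12.0, against 7.57, 7.64 and 7.52 at E11.8. Their E11.0 means, 7.51 for Adamts19 and 7.12 for Mybphl, lay under the intensity limit of 7.59. The size and timing of these rises are therefore uncertain.

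Few probes passed within a single interval of 4.8 h. Between E11.2 and E11.0, 10 rose and 17 fell (0.0778% and 0.132% of probes). They included Gadd45g, a stress-inducible regulator of MAP kinase signalling that is needed for Sry expression in XY gonads, at 12.74, 12.88 and 13.00 in E11.2 against 12.001, 11.92 and 12.17 in E11.0 (0.84 ± 0.17, adjusted p = 0.0204), with no overlap. Also in this interval Ctcf, the insulator protein, rose by 0.68 ± 0.15 (adjusted p = 0.0251), while its difference between E12.0 and E11.0 was 0.00 ± 0.15. Aldh1a2 fell by 0.79 on the log2 scale, Eno3, the muscle form of enolase, by 0.77, and Tdg, a DNA glycosylase of active demethylation, by 0.67. The count hung on single arrays, with 0 probes called without replicate 2 of E11.0, replicate 2 of E11.2 or replicate 3 of E11.2, and with 9 without replicate 1 of E11.0, 130 without replicate 3 of E11.0 and 166 without replicate 1 of E11.2. It was 41 without replicate 1 of E12.0, which is outside the interval and enters the estimate of the spread.

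In the second interval 2 probes rose (0.0156%), those of Fst and Angptl4, and 2 fell, those of Gng2, a G protein subunit, and Nrd1, a metalloendopeptidase. The calls of Gng2 and Nrd1 were lost without any one of replicates 2 and 3 of E11.2 or replicates 2 and 3 of E11.4. Between E11.6 and E11.4 and between E11.8 and E11.6 limma called 0 probes, with 282 and 1419 probes at an unadjusted p under 0.05, and in the fit of the 18 arrays alone 1 probe passed between E11.8 and E11.6. Between E12.0 and E11.8, 2 rose (0.0156%), those of Irx3 and Adamts19, and 2 fell, those of Pacsin3, an endocytic adaptor (by 0.66 on the log2 scale), and Zxda, an X-linked zinc finger protein (by 1.01). Adamts19, Pacsin3 and Zxda missed the threshold in the fit of the 18 arrays alone and without 4, 4 and 6 of the 6 single arrays of the interval. Irx3 kept its call without any single array.

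A test of all 6 stages at once called 615 probes (4.79%). A transient change, in which an inner stage lies above or below both ends, was called for 0 probes in either direction. Before the Benjamini-Hochberg adjustment 228 probes had a p under 0.05 in this test.

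The change over the day differed from that of the 129S1 XX gonad in 2 of 12848 probes (0.0156% higher in B6 and 0 lower), with 449 at an unadjusted p under 0.05. They were Gng13 and Pglyrp1. In B6 XX gonads Gng13 rose by 1.75 ± 0.16, and in 129S1 XX gonads it was 7.34, 7.35 and 7.48 at E12.0, against 7.54, 7.10 and 7.41 at E11.0, so that all arrays of 129S1 lay below all of B6 (difference of the changes 1.71, adjusted p = 6.16e-06). Pglyrp1 in 129S1 XX gonads was 7.16, 7.22 and 7.18 at E12.0, against 7.15, 7.04 and 7.13 at E11.0 (difference of the changes 1.92, adjusted p = 0.00683). All these 129S1 values lay under the intensity limit of 7.59, so that no change there was measured, and whether the 2 probes match the 129S1 sequence was not tested. The Pglyrp1 difference missed the threshold without replicate 1 of E12.0 (adjusted p = 0.122), replicate 2 of E11.0 (0.0521) or replicate 3 of E12.0 (0.0511). Of the 418 risen and 302 fallen probes, 172 and 122 were also called in the same direction in 129S1 XX gonads, whose arrays are separate and in which 300 probes rose and 255 fell.

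Against the B6 XY gonad the change was higher in 67 probes (0.521%) and lower in 128 (0.996%). Fst was at 7.83, 8.004 and 7.54 in XY gonads at E12.0, against 7.53, 7.70 and 8.13 at E11.0, a change of 0.00 ± 0.24, and the difference between the changes of the sexes was 3.07 ± 0.34 (adjusted p = 5.04e-09). Irx3 changed by 2.77 in XX gonads and 0.45 in XY gonads, and the difference of 2.31 ± 0.32 passed (adjusted p = 1.14e-06). Sp5 changed by 1.86 and 0.01 (difference 1.85 ± 0.42, adjusted p = 0.00676, or 0.0535 without replicate 1 of E11.0). Axin2 changed by 0.98 in XX gonads and -0.21 in XY gonads (difference 1.19 ± 0.25, adjusted p = 0.002). For Wnt4 the changes were 0.57 in XX gonads and -0.97 in XY gonads. Their difference, 1.54 ± 0.42, passed (adjusted p = 0.0398), although the XX change alone did not, and it missed the threshold without replicate 1 or 3 of E11.0 or replicate 1 or 3 of E12.0. Sohlh1 changed by 1.39 in XX gonads and 0.24 in XY gonads (difference 1.15 ± 0.24, adjusted p = 0.00173). For the germ cell genes Sall4, Tfap2c and Asz1 no difference between the sexes was called. Rec8, the meiotic cohesin subunit, changed by 0.76 in XX gonads and -0.79 in XY gonads (difference 1.55 ± 0.28, adjusted p = 0.00018), although its XX change alone missed the threshold without replicate 1 of E11.0 (0.0777) or replicate 1 of E12.0 (0.22). Phlda2 changed by 1.62 in XX gonads and -0.20 in XY gonads (difference 1.82 ± 0.43, adjusted p = 0.0105, or 0.136 without replicate 1 of E12.0).

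The falls of Cbln1 and Cbln4 differed from their changes in XY gonads. Cbln1 was at 11.16, 11.96 and 12.003 in XY gonads at E12.0, against 11.53, 11.77 and 11.32 at E11.0, and the XX change was lower by 2.89 ± 0.35 (adjusted p = 3.34e-08). The difference for Cbln4 was -2.80 ± 0.24 (adjusted p = 1.03e-12), with a change of 1.61 in XY gonads. Genes known from Sertoli cells were low in XX gonads. Dhh, the hedgehog ligand of Sertoli cells, was 7.49, 7.46 and 7.52 in XX gonads at E12.0, against 9.68, 11.14 and 11.15 in XY gonads at E12.0. Cst9, a testis cystatin, was 8.04, 8.50 and 8.29 in XX gonads against 10.99, 11.97 and 12.39 in XY gonads. Mmd2, a membrane protein with high expression in Sertoli cells, was 7.25, 7.46 and 7.65 against 10.40, 10.76 and 10.88. Sox9, the factor that drives Sertoli cell fate, averaged 7.41 in XX gonads at E12.0, against 7.54 at E11.0. The XX means of Dhh, Mmd2 and Sox9 lay under the intensity limit of 7.59 at both stages, so that these probes were kept for their XY values and no fall in XX gonads was measurable.

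Some genes of the testis pathway nevertheless rose in XX gonads. Of 27 measured 4 rose (14.8%, against 3.54% of all genes) and 2 fell, the cerebellin genes (7.4%, against 2.61%), with a median of 0.11. Aard, a gene with testis expression named for its alanine and arginine-rich domain, was 10.16, 9.67 and 10.19 at E12.0, against 8.60, 8.76 and 9.05 at E11.0 (1.20 ± 0.29, adjusted p = 0.00449). Its change in XY gonads was 3.97, and the difference of the changes was -2.77 ± 0.41. Adamts16, a secreted metalloprotease, rose by 0.72 ± 0.16 in XX gonads and 2.39 in XY gonads. Gadd45g rose by 0.67 ± 0.17 between the ends, while a second, dimmer probe gave 0.38 and did not pass (adjusted p = 0.586). Etv5, an ETS factor downstream of FGF, rose by 0.56 ± 0.18, and missed the threshold without any single array of E11.0, without replicate 1 or replicate 2 of E12.0, without any of 5 arrays of the stages between, and in the fit of the 18 arrays alone (adjusted p = 0.145).

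**Figure D5:**
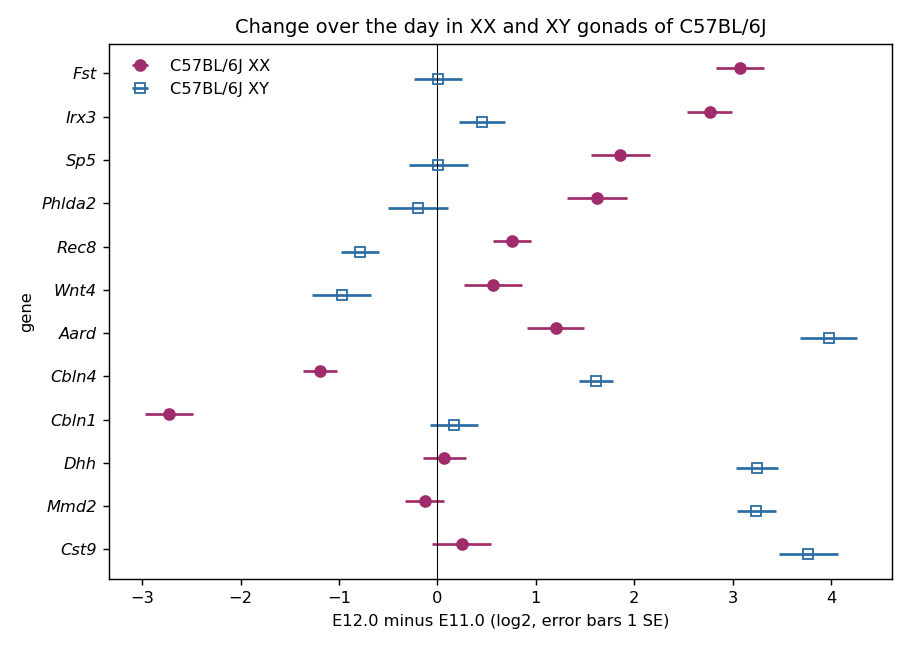
Difference between E12.0 and E11.0 (log2, horizontal axis) of 12 genes in B6 XX gonads (filled circles) and B6 XY gonads (open squares), with bars of 1 standard error of limma. Fst, Irx3 and Sp5 lie to the right in XX gonads and near 0 in XY gonads for Fst and Sp5, while Dhh, Mmd2 and Cst9 lie near 0 in XX gonads, where Dhh and Mmd2 average under the intensity limit at both stages, and above 3 in XY gonads.

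Some changes ran the same way in both sexes. Of the 418 risen probes 112 also rose in B6 XY gonads, and of the 302 fallen 75 also fell, among the 461 probes that rose and the 256 that fell in XY gonads. Among genes chosen as examples after their values were seen, Hoxa7 changed by -1.50 in XX gonads and -1.49 in XY gonads, Hs3st3a1 by 1.71 and 1.79, Hoxd10 by 1.78 and 1.88, Gfra3 by -1.39 and -1.33, and Cxcl12 by -1.94 and -1.62. The difference between the sexes was called in 48 of the risen and 14 of the fallen probes.

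Other lists held few changes. Of 26 genes of cell division 0 rose and 1 fell, the mitotic regulator Birc5, by 0.33 on the log2 scale, and it passed in 1 of its 3 probes. Of 24 genes of hypoxia and glycolysis Ndrg1, a stress-responsive gene, rose by 0.85 and Mgarp, a mitochondrial protein, fell by 0.99. Of 13 genes of the Notch pathway the receptors Notch3 and Notch4 fell, by 0.66 and 0.50, and neither passed without replicate 1 of E12.0. Each of these 5 genes missed the threshold without at least 1 single array of E11.0 or E12.0. Of 11 red blood cell genes and 14 macrophage and leukocyte genes 0 passed, and the median of the macrophage and leukocyte list was -0.39. Hspb1, a small heat shock protein, rose by 0.88 ± 0.17 and the immediate early gene Egr1 by 1.07 ± 0.31 with overlapping arrays, as the only ones of 12 immediate early and heat shock genes, and Egr1 missed the threshold without replicate 1 or replicate 2 of E11.0 or replicate 2 or replicate 3 of E12.0. Of 4 measured genes of steroid synthesis Mc2r, the receptor of adrenocorticotropic hormone, fell by 0.75 on the log2 scale, and of 4 measured hedgehog pathway genes 0 passed. Of 17 transcription factors that form the genital ridge 1 fell, Zfpm1, a cofactor of GATA factors, by 0.46 on the log2 scale. Zfpm1 passed only with replicate 2 and replicate 3 of E11.0 and all arrays of E12.0 in the fit.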

How the data were processed

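Total RNA of single gonad pairs was amplified, biotin-labelled and hybridised to MouseRef-8 v2.0 arrays. The values used are log2 intensities that the authors deposited, quantile normalized over all 74 arrays with beadarray after GenomeStudio; the submitters' processing notes name R 2.12.0. The deposited table of values before normalization has 74 intensity and 74 detection columns whose names are not paired with samples by the labels, and it was not used here, so no detection filter or slide effect was computed.

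Of 25697 probes, the 12848 whose second-brightest array in their best group was in the upper 50% were kept. They carry 9003 gene symbols, and 23962 probes of the array were matched by gene identifier to current annotation. A list used 1 probe a gene, the one with the highest mean. One model of 24 group means over all 74 arrays was used (limma 3.58.1 under R 4.3.3), with Benjamini-Hochberg adjustment over all kept probes at 0.05. Plots used Python 3.11.15, pandas 2.3.3 and matplotlib 3.10.9. The scripts were tested on simulated data.

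Arrays give no depth, and their number limits the precision. Genes and lists were chosen with earlier results of these data known. The genes named are the 15 largest rises and falls with no overlap between the arrays of E12.0 and E11.0, up to 4 genes a list, those called in intervals, steps and interactions with the largest change or smallest p, and genes the study names. Other genes of a list that passed are named to complete its count. Alternatives changed the normalization, filter, weights, arrays, block and thresholds.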

Additional observations from a re-analysis of the deposited data

Results flagged for a closer look

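The change between E12.0 and E11.0 differed from that of another group, by a limma test of the difference with Benjamini-Hochberg adjustment at 0.05, for the following genes among those chosen by the rules for naming. Compared with 129S1 XX gonads the B6 XX change was higher for Gng13 by 1.71 and for Pglyrp1 by 1.92. Every 129S1 XX array of both stages lay under the intensity limit of 7.59 for these 2 probes, and whether they match the 129S1 sequence was not tested.

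Compared with B6 XY gonads the B6 XX change was higher for Fst by 3.07, for Irx3 by 2.31, for Sp5 by 1.85, for Phlda2 by 1.82, for Rec8 by 1.55, for Wnt4 by 1.54, for Wfdc1 by 1.49, for Msx1 by 1.44, for Gng13 by 1.36, for Axin2 by 1.19, for Sohlh1 by 1.15, for Porcn by 0.934, for Zfp277 by 0.88, for Angptl4 by 0.833 and for Amhr2 by 0.763. It was lower for Cst9 (-3.52), Mmd2 (-3.37), Dhh (-3.18), Cbln1 (-2.89), Cbln4 (-2.80), Aard (-2.77), Sox9 (-2.34), Adamts16 (-1.67), Cldn6 (-1.57), Fgf9 (-1.47), Lmo4 (-1.44), Amh (-1.38), Mef2c (-0.879) and Ngfr (-0.847). For Dhh, Mmd2, Sox9, Fgf9 and Amh the XX means lay under the intensity limit at both stages, so that their differences describe the XY gonads.

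Phlda2, Pglyrp1 and Wnt4 missed the threshold without replicate 1 of the B6 XX gonads at E12.0, the array with the lowest correlation to its group, their adjusted p then being 0.136, 0.122 and 0.153. So did Porcn (0.21, and without replicate 1 or replicate 2 of E11.0) and Mef2c (0.213, and without any of 9 other single arrays). Amhr2 and Angptl4 missed it without replicate 1 or replicate 2 of E11.0 or replicate 2 or replicate 3 of E12.0, Cldn6 without replicate 3 of E11.0 or replicate 3 of E12.0, and Sp5, Ngfr and Zfp277 without replicate 1 of E11.0. Each stage had 3 arrays, too few for the search for arrays far from their group.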

How the results depend on the processing

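For rises (418) and falls (302) between E12.0 and E11.0, the 18 arrays alone gave 232 and 162, and on those 18 a second quantile normalization gave 238 and 167 and cyclic loess 249 and 147. With all 74 arrays in the fit, an alternative chosen after seeing the data, these normalizations gave 429 and 301, and 461 and 273. Array weights gave 1305 and 1176, the fold minimum 236 and 147, an adjusted p under 0.01 231 and 141, and E11.2 in place of E11.0, an alternative chosen after seeing the data, 257 and 142. The weights ranged from 0.333 to 5.15, with replicate 1 of the B6 XX gonads at E12.0 at 0.334 and replicate 3 at 5.15. The test over 6 stages (615) gave 278, 4216, 295 and 288 with the 18 arrays, weights, and quantile and loess on the 18 arrays. In the intervals, E11.2 minus E11.0 (27) gave 3, 3 and 2 with the 18 arrays, quantile and loess. E11.4 minus E11.2 (4) gave 1, 1 and 1 with these, E11.8 minus E11.6 (0) gave 1, 29 and 1 with the 18 arrays, weights and quantile, and E12.0 minus E11.8 (4) gave 1 with no filter, 2698 with weights, 12 with loess on the 18 arrays and 1 with loess and 74 arrays. Weights gave 3 transient probes, 52 strain differences (2) and 517 sex differences (195).

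With quantile normalization and loess on the 18 arrays, gradual rises (246) numbered 163 with quantile, steps up (63) 32 and 34, rises not separated (109) 43 and 41, gradual falls (170) 107 and 94, steps down (58) 34 and 29, and falls not separated (74) 26 and 24. With a BIC margin of 0 steps up were 114, steps down 88 and 0 not separated, and with a margin of 6 gradual rises were 103, steps up 23, rises not separated 292, gradual falls 66, steps down 22 and falls not separated 214.

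Leaving out 1 array at a time gave 248 to 434 rises, 172 to 344 falls, 0 to 166, 0 to 9, 0 to 0, 0 to 1 and 1 to 6 calls in the 5 intervals, 401 to 695 over 6 stages, 0 to 0 transient, 160 to 257 gradual rises, 32 to 95 steps up, 50 to 132 rises not separated, 87 to 179 gradual falls, 25 to 120 steps down, 27 to 92 falls not separated, 1 to 3 strain and 143 to 198 sex differences.

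Same-numbered samples of E12.0 and E11.0 did not deviate together (correlations 0.05, -0.63 and 0.13), so the numbers do not pair them. With the replicate number as a block, 438 probes rose and 339 fell, and the second interval had 7 calls.

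Of the named genes, 5 changed sign with E11.2 as the first stage, Aldh1a2 (0.059), Cldn6 (0.000228), Eno3 (0.16), Gadd45g (-0.17) and Tdg (0.17), and Rspo1, which did not pass, changed sign without replicate 3 of E11.0 (-0.03) or replicate 1 of E12.0 (-0.13), its range over single arrays left out being -0.13 to 0.44. Of all settings run on the end-to-end change of named genes, 132 weakened a call and 5 strengthened one, beside 123 and 1 when an array was left out. The causes were not tested. The median standard error of 0.14, from 3 arrays a stage and a spread estimated over all 74 arrays, limits the size of change that passes.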
